A study of Homo sapiens with 18 samples.

Results

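The human ligands of NKG2D are 8 genes of chromosome 6: MICA, MICB, ULBP1, ULBP2, ULBP3, RAET1E (also called ULBP4), RAET1G (ULBP5) and RAET1L (ULBP6). They were taken by symbol from the gene expression tables of 3 cancer cell lines, and all 8 had a row in each table, out of 26583 gene names in all. NKG2D is an activating receptor of natural killer cells and of some T cells. Its ligands are distant relatives of MHC class I that healthy cells carry at low levels and that stressed, infected or transformed cells put on their surface, where they mark the cell for killing. MICA and MICB span the membrane and have an α3 domain like that of class I molecules. The ULBP and RAET1 proteins lack that domain, and several of them are held in the membrane by a glycosylphosphatidylinositol (GPI) anchor.

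The cells were RKO and COLO 201, derived from colon cancers, and H1975, derived from a lung cancer. The cells carried a tetracycline-inducible small hairpin RNA against MUC1, a transmembrane mucin gene, and puromycin resistance. They were given 500 ng/ml doxycycline, which switches the hairpin on, or 0.1% DMSO as the vehicle, with 3 columns per arm and line. The arms were read from the column headings, and in RKO a heading without a plus sign was read as vehicle. Doxycycline-treated cells are set against vehicle-treated cells of the same line. The hairpin was present in both arms, and no arm with a control hairpin was analysed here, so an effect of doxycycline itself cannot be told apart from an effect of the hairpin. The labels name cultures in triplicate and do not say whether these were grown on separate days, so p-values measure the spread between these cultures. The question named in the study's title is whether MUC1 controls the ligands MICA and MICB.

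All values are TPM, a unit that divides reads by transcript length and by the column's total, so levels can be compared between genes of a column. A change is the mean difference of log2(TPM + 1) between doxycycline and vehicle columns, which understates the change of low genes. It was tested with limma over all genes with a mean of at least 1 TPM in a line, with Benjamini-Hochberg adjustment and a threshold of 0.05. Of the 8 ligands, 4 were tested in RKO, 7 in COLO 201 and 7 in H1975.

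The genes lie in 2 clusters (GRCh38, GENCODE release 29). MICA (chromosome 6, 31399784 to 31415315, plus strand) and MICB (31494881 to 31511124, plus strand) lie in the MHC and span 111.3 kb together. The other cluster spans 185.7 kb on the long arm, 118372.3 kb away, with RAET1E (149883375 to 149898102, minus strand), RAET1G (149916878 to 149923121, minus), ULBP2 (149942000 to 149949235, plus), ULBP1 (149964007 to 149973710, plus), RAET1L (150018334 to 150025532, minus) and ULBP3 (150063150 to 150069095, minus).

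The sequences before the starts of 4 ligands are shown because MICA and MICB moved together, while ULBP3 and RAET1L moved in opposite directions in COLO 201 and H1975. They are the plus-strand bases chr6:31403345-31403578 for MICA and chr6:31497895-31498085 for MICB, and the minus-strand bases chr6:150069122-150069371 for ULBP3 and chr6:150025533-150025782 for RAET1L (RefSeq, GRCh38.p14). Each window starts 250 bases before a RefSeq start, and the MICA and MICB windows stop where GENCODE has an exon. Both of these windows lie inside the gene interval given above, which begins at a more distant start. Capitals mark letters that match 1 of 7 motifs searched on both strands.
MICA: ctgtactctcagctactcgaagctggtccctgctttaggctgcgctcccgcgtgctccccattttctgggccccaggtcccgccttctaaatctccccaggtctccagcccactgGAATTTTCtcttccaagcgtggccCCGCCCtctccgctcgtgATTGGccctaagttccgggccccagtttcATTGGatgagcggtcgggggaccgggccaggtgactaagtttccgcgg
MICB: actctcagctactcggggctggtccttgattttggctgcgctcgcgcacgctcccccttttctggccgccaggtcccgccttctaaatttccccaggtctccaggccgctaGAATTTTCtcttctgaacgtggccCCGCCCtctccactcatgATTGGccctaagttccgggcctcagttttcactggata
ULBP3: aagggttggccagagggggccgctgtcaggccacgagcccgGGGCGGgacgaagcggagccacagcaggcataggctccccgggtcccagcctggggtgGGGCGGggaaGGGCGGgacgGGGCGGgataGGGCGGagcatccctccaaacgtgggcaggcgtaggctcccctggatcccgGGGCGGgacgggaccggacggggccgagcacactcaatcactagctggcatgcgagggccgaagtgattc
RAET1L: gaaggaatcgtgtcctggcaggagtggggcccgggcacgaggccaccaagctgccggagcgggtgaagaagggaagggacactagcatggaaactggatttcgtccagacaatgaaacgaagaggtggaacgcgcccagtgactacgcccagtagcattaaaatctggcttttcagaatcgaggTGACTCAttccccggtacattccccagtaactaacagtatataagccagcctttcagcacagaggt

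The MICA and MICB windows both held GAATTTTC, a match to the heat shock element GAANNTTC, which 5.795% of 34788 RefSeq windows of 250 bases held. Each also had a GC box (GGGCGG, read here as CCGCCC, in 42.58% of windows) and at least 1 CCAAT box (read here as ATTGG, in 32.02%), 2 in MICA and 1 in MICB. Aligned over 250 bases, the MICA and MICB windows were identical at 82.68% of positions. The ULBP3 window held 6 GC boxes and no other motif searched. The RAET1L window held 1 AP-1 site (TGACTCA, in 4.214% of windows) and no GC box. Among the other ligands, ULBP1 and ULBP2 each had 3 matches to TGACG, the core of the cyclic AMP response element (in 21.16%), and 1 of the 3 RAET1E windows had an E-box (CACGTG, in 6.313%) and 2 CCAAT boxes. Another RAET1E window had 1 AP-1 site, as RAET1L did, and the last had 1 CCAAT box. ULBP2 and RAET1G each had 1 GC box and 1 CCAAT box, as MICB did, and ULBP1 had 2 GC boxes. TATAAA, the TATA box, was in 10.77% of windows and in none of these. A match describes letters and is no evidence of binding.

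In the TPM columns MUC1 fell to 1.78 TPM (mean of 3) in doxycycline-treated COLO 201 cells, against 13.9 TPM in vehicle-treated cells, and to 8.01 against 97.5 TPM in H1975. In RKO it had 0.108, 0.105 and 0.204 TPM in the doxycycline columns, against 15.2, 1.24 and 1.03 TPM in the vehicle columns. The arms did not overlap in any line, and the exact permutation p was 0.1 in each, the smallest that 3 against 3 allows. Vehicle column 1 of RKO stood apart. Its 10 fibroblast and endothelial markers summed to 239 TPM. The lowest vehicle column had 0.00909 TPM of them, and the doxycycline columns at most 0.0199 TPM. The 12 leukocyte and erythroid markers of vehicle column 1 summed to 5.63 TPM, against 0.0421 TPM in the lowest vehicle column. In the leukocyte and erythroid list NCAM1 led at a mean of 0.907 TPM over the 6 columns, against 0.0324 TPM for the next gene, HBA1. In RKO 6 of these 12 markers were at 0 in every column, so the sum does not show leukocytes. The part of the RNA of these marker lists in the RKO results was not tested. RKO values are therefore also given without that column where it matters. RKO expressed 2 of 8 colon epithelium markers at 1 TPM or more, and 3 were at 0 in every column. In COLO 201 these markers summed to 955 to 1049 TPM in doxycycline columns and 1102 to 1145 TPM in vehicle columns. Of 6 tested, 2 rose and 3 fell, among them LGALS4 (-1.39) and GPA33 (-1.25), while CDH17 rose by 1.28 (limma adjusted p = 7.8e-10, 2.6e-08 and 8.8e-08). Lysozyme (LYZ) of the leukocyte list had 592, 615 and 624 TPM in COLO 201 doxycycline columns, against 1217, 1221 and 1219 TPM in vehicle columns (log2 change -0.997, 1.9e-09). In H1975 the lung factor gene NKX2-1 had 15.9, 16.9 and 15.1 TPM with doxycycline, against 22.4, 23.5 and 25.6 TPM with vehicle. It fell by 0.55 and NAPSA, an aspartic protease gene, by 1.18 (limma adjusted p = 9.9e-05 and 1.8e-05), 2 of 3 lung markers tested, while 3 of 8 were at 0. Its fibroblast and endothelial sums were 17.2 to 20.9 TPM with doxycycline and 45.2 to 47.3 TPM with vehicle. Of that list only 2 genes reached a mean of 1 TPM in H1975, COL1A1 (22.5 TPM) and COL1A2 (9.69 TPM). The sums there rest on these 2 collagen genes. The part of these marker changes in the COLO 201 and H1975 ligand results was not tested.

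In COLO 201 MICA and MICB more than doubled in level. MICA had 18.9, 18.7 and 17.9 TPM in doxycycline columns, against 7.81, 7.75 and 6.85 TPM in vehicle columns. The arms were far apart, and the mean ratio was 2.48. MICB had 10.7, 10.4 and 10.4 TPM with doxycycline, against 4.92, 4.77 and 4.24 TPM with vehicle, a mean ratio of 2.26. In log2 terms the rise was 1.21 ± 0.06 (SE) for MICA and 1.03 ± 0.06 for MICB (limma adjusted p = 1.2e-08 and 6.8e-08). Both calls held under each of the 14 alternative settings, with changes of 0.92 to 1.30 for MICA and 0.69 to 1.16 for MICB.

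In H1975 MICA was the more abundant of the pair, as in COLO 201, and both rose by less. MICA had 33.9, 38.1 and 37.3 TPM in doxycycline columns, against 24.5, 25.3 and 28.3 TPM in vehicle columns, a mean ratio of 1.40. MICB had 10.1, 10.2 and 8.55 TPM with doxycycline, against 6.88, 7.95 and 7.26 TPM with vehicle, a mean ratio of 1.31. For each gene every doxycycline column was above every vehicle column. The log2 changes were 0.47 ± 0.08 for MICA and 0.34 ± 0.09 for MICB (limma adjusted p = 3.8e-04 and 0.0074). The MICB call was lost without vehicle column 1 (adjusted p = 0.0523), and the MICA call held under all 14 alternatives.

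In RKO both genes were near 1 TPM. MICA had 1.11, 1.53 and 1.26 TPM in doxycycline columns, against 1.22, 1.22 and 0.992 TPM in vehicle columns, and the arms overlapped. MICB had 1.05, 1.46 and 1.203 TPM with doxycycline, against 1.30, 1.19 and 1.01 TPM with vehicle, again overlapping. The log2 changes were 0.10 (95% confidence interval -0.36 to 0.56) for MICA and 0.05 (-0.41 to 0.51) for MICB (limma adjusted p = 0.78 and 0.90), so the intervals include both no change and the changes measured in H1975.

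The RKO levels depended on what the TPM were shared with. Of the RKO total, 78.7%, 71.1% and 75.9% belonged to genes of small noncoding RNAs in the doxycycline columns and 71.4%, 67.8% and 72.0% in the vehicle columns, while the class held at most 0.00841% of the total in the other tables. Scaled to the 18998 genes listed in all 3 tables, MICA had 5.40, 5.47 and 5.43 TPM in RKO doxycycline columns and 4.38, 3.90 and 3.64 TPM in vehicle columns. On that scale MICB had 5.14, 5.24 and 5.18 TPM with doxycycline and 4.66, 3.81 and 3.70 TPM with vehicle. Neither gene's arms overlapped there, with doxycycline higher, as for 24.6% of the 9984 RKO genes compared on that scale, where a further 27.2% had doxycycline lower. With columns rescaled by the median ratio and without vehicle column 1, MICA changed by 0.29 (limma adjusted p = 8.8e-04) and MICB by 0.26 (0.0019), under a setting that called 29.1% of genes higher and 29.8% lower. With that column kept, rescaling gave 0.26 (0.0724) and 0.21 (0.147), so neither was called. Removing small noncoding and mitochondrial genes gave 0.36 for MICA and 0.28 for MICB, again with neither called.

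**Figure D1:**
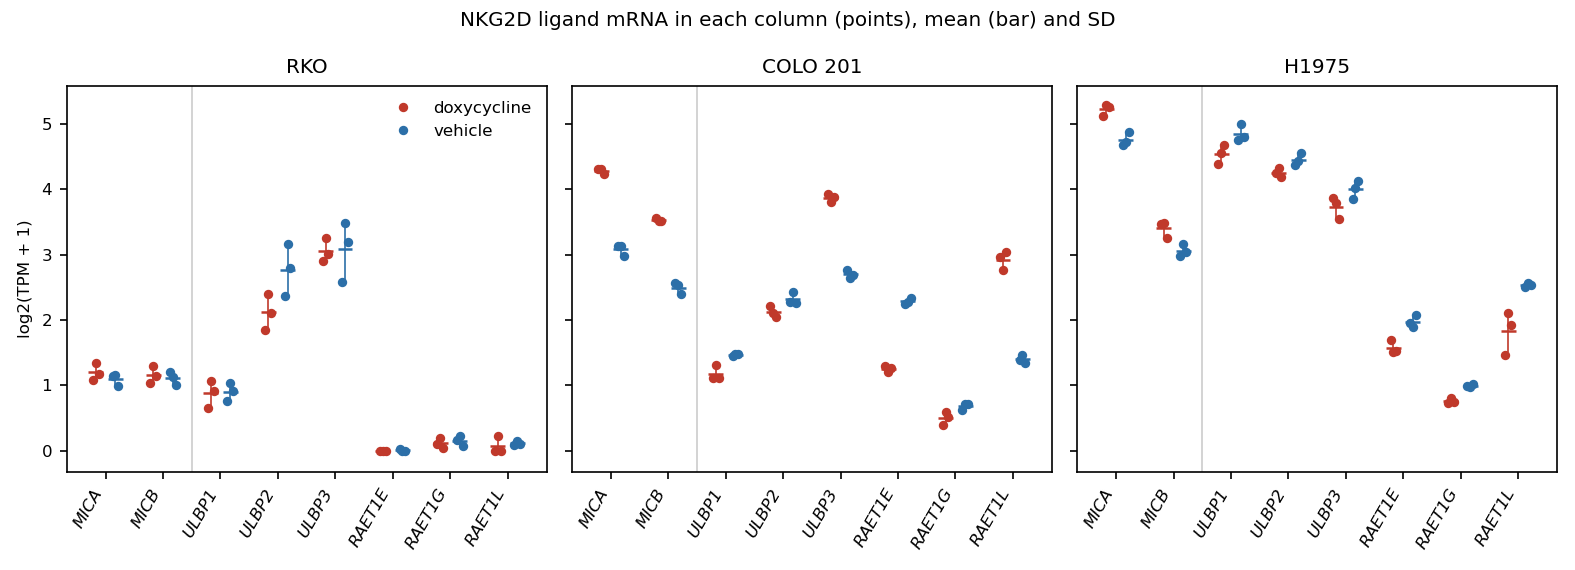
Ligand mRNA as log2(TPM + 1) in each column of RKO, COLO 201 and H1975, with the doxycycline columns left of the vehicle columns, and bars and lines for mean and SD (n = 3). MICA and MICB of doxycycline columns lie above those of vehicle columns in COLO 201 and H1975 and overlap them in RKO, and ULBP3 and RAET1L lie above in COLO 201.

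The ULBP and RAET1 genes did not follow the MIC genes as a block. In COLO 201, 2 of their 5 tested members rose and 3 fell. In H1975 all 5 tested fell, and in RKO 1 of 2 tested fell. Over the whole family this made 4 higher and 3 lower of 7 in COLO 201, where 61% of all genes tested were called, 45.9% higher and 15% lower. It made 2 higher and 5 lower of 7 in H1975, where 38.5% were called, 23.9% higher and 14.6% lower, and 0 higher and 1 lower of 4 in RKO, where 18.1% were called, 2.09% higher and 16.1% lower. In such bulk RNA fewer cells of a kind and less RNA per cell cannot be told apart. With columns rescaled by the median ratio the calls over all genes were split 3153 higher and 3435 lower in COLO 201 instead of 5312 and 1740, and 1453 and 1468 in RKO instead of 220 and 1695. The ligand counts under rescaling were again 4 and 3 in COLO 201 and 2 and 5 in H1975, and 0 and 0 in RKO.

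ULBP3, whose product is a GPI-anchored ligand, and RAET1L, whose product ULBP6 is GPI-anchored too, went opposite ways in COLO 201 and H1975. ULBP3 had 14.2, 13 and 13.8 TPM in doxycycline columns of COLO 201, against 5.77, 5.26 and 5.46 TPM in vehicle columns. In H1975 it had 13.6, 12.8 and 10.6 TPM with doxycycline, against 13.4, 15.3 and 16.4 TPM with vehicle. The arms were clearly separate in COLO 201 and overlapped in H1975. The log2 changes were 1.17 ± 0.06 in COLO 201 (limma adjusted p = 1.4e-08) and -0.27 ± 0.10 in H1975 (0.0415). The H1975 call was lost without vehicle column 2 (0.0787), vehicle column 3 (0.17) or doxycycline column 3 (0.106). It was also lost with no minimum TPM (0.119) and with a block for the column number (0.0603). In RKO ULBP3 was the most abundant ligand, at 6.51, 8.56 and 7.04 TPM with doxycycline and 4.96, 10.2 and 8.10 TPM with vehicle, a log2 change of -0.02 (95% confidence interval -0.45 to 0.40, limma adjusted p = 0.95).

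RAET1L had the largest change of the family in either line. In COLO 201 it had 6.78, 5.82 and 7.19 TPM with doxycycline, against 1.60, 1.77 and 1.54 TPM with vehicle, a mean ratio of 4.03. In H1975 it had 1.76, 3.30 and 2.80 TPM with doxycycline, against 4.67, 4.92 and 4.79 TPM with vehicle, a mean ratio of 0.546. The arms did not overlap in either line. RAET1L changed by 1.52 ± 0.08 in COLO 201 and -0.70 ± 0.13 in H1975 (limma adjusted p = 2.0e-08 and 8.4e-04), and both calls held under all 13 alternatives that tested the gene. In RKO it was listed at 0 in 2 doxycycline columns and at 0.162 TPM in the other, against 0.0618, 0.112 and 0.0786 TPM with vehicle, too low to test.

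RAET1E, which encodes a ligand with a transmembrane segment, fell in both lines that expressed it. It had 1.45, 1.29 and 1.41 TPM in doxycycline columns of COLO 201, against 3.73, 3.85 and 4.03 TPM in vehicle columns, a mean ratio of 0.357. In H1975 it had 2.23, 1.86 and 1.86 TPM with doxycycline, against 2.86, 2.73 and 3.20 TPM with vehicle. Every doxycycline column was below every vehicle column in both lines. RAET1E changed by -1.03 ± 0.07 in COLO 201 and by -0.40 ± 0.09 in H1975 (limma adjusted p = 1.6e-07 and 0.0042), and both calls held under all 13 alternatives that tested it. In RKO it was listed at 0 in every doxycycline column and at 0.0159, 0 and 0 TPM in the vehicle columns.

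ULBP1 and ULBP2 were lower with doxycycline in COLO 201 and H1975 by small amounts. ULBP1 had 1.16, 1.48 and 1.17 TPM in doxycycline columns of COLO 201, against 1.74, 1.78 and 1.79 TPM in vehicle columns. In H1975, where it was among the most abundant ligands, it had 19.8, 22.4 and 24.6 TPM with doxycycline, against 26.0, 31.0 and 26.9 TPM with vehicle. The arms did not overlap in either line. The log2 changes were -0.29 ± 0.08 in COLO 201 and -0.32 ± 0.09 in H1975 (limma adjusted p = 0.0081 and 0.0129). The H1975 call was lost without vehicle column 2 (0.0501) or doxycycline column 1 (0.0845) and with no minimum TPM (0.0528). In RKO ULBP1 had 0.578, 1.10 and 0.881 TPM with doxycycline and 0.692, 1.04 and 0.879 TPM with vehicle, overlapping and below the minimum for the test.

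ULBP2, a GPI-anchored ligand that can also be shed from cells, was the only ligand called in RKO. It had 2.59, 4.27 and 3.31 TPM in RKO doxycycline columns, against 4.14, 7.94 and 5.93 TPM in vehicle columns, and the arms overlapped. The log2 change was -0.65 ± 0.20 (limma adjusted p = 0.0238), and the call was lost without vehicle column 2 (0.176), doxycycline column 1 (0.228) or doxycycline column 3 (0.0841). It was also lost with a pseudocount of 5 (0.0707), no minimum TPM (0.211), columns rescaled (0.11) and small noncoding and mitochondrial genes removed (0.107). It was kept without vehicle column 1, the column that stood apart (6.6e-04). In COLO 201 ULBP2 had 3.62, 3.30 and 3.12 TPM with doxycycline, against 3.84, 4.403 and 3.8 TPM with vehicle, a log2 change of -0.21 ± 0.08 (0.0311). That change was not called without vehicle column 2 (0.145), doxycycline column 2 (0.056) or doxycycline column 3 (0.0852), or with no minimum TPM (0.0613). In H1975 ULBP2 had 18.1, 19.0 and 17.2 TPM with doxycycline, against 19.7, 20.6 and 22.4 TPM with vehicle, a log2 change of -0.20 ± 0.08 (0.0494). The H1975 call held in 4 of 14 alternatives. It was lost without any 1 of vehicle columns 1, 2 and 3 (0.0563, 0.0755 and 0.207) or doxycycline columns 1 and 3 (0.143 and 0.104). It was also lost with a pseudocount of 5 (0.0537), no minimum TPM (0.075), a minimum of 5 TPM (0.0501), no trend (0.0526) and a block for the column number (0.117).

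RAET1G, another ligand with a transmembrane segment, was the least abundant ligand in COLO 201 and H1975 and was below the minimum for the test in every line. It had 0.308, 0.508 and 0.431 TPM in doxycycline columns of COLO 201, against 0.531, 0.645 and 0.636 TPM in vehicle columns. In H1975 it had 0.650, 0.749 and 0.669 TPM with doxycycline, against 0.994, 0.954 and 1.03 TPM with vehicle. The doxycycline columns were the lower ones in both lines without overlap. With no minimum TPM, limma gave log2 changes of -0.18 (adjusted p = 0.0398) in COLO 201 and -0.24 (0.0069) in H1975. In RKO it had 0.0721, 0.150 and 0.0283 TPM with doxycycline and 0.114, 0.172 and 0.0483 TPM with vehicle.

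Counting columns without a test, all 8 ligands had separate arms in COLO 201, 4 with doxycycline above and 4 below. In H1975 2 were above, 5 were below and ULBP3 overlapped, and in RKO all 8 overlapped. Among all genes tested the doxycycline columns were all above in 48.5% and all below in 16.6% in COLO 201, in 30.7% and 18.4% in H1975, and in 3.9% and 32.4% in RKO.

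**Figure D2:**
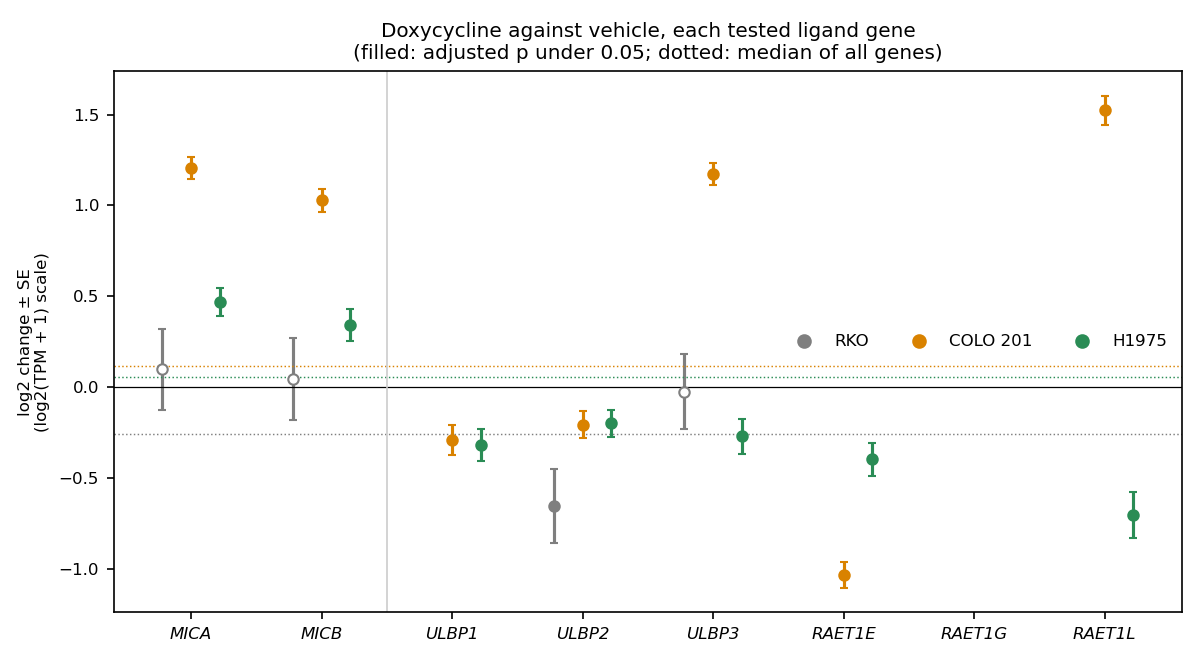
Log2 change with doxycycline against vehicle (± SE, limma) of each ligand tested in RKO, COLO 201 and H1975, with filled points for adjusted p under 0.05 and dotted lines at the median of all genes tested in a line (-0.26, 0.12 and 0.06). MICA and MICB are above 0 in each line and called in COLO 201 and H1975, while ULBP3 and RAET1L are called on opposite sides of 0 in those lines.

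Whether the lines differed was tested on the difference of their changes, in a joint limma fit of all 18 columns with adjustment over the genes tested in both lines. Between COLO 201 and H1975, where 11.6% of 10695 genes differed, 5 of the 7 ligands tested in both did. The difference (COLO 201 minus H1975) was 0.74 ± 0.13 for MICA, 0.69 ± 0.13 for MICB, 1.44 ± 0.23 for ULBP3, 2.22 ± 0.17 for RAET1L and -0.64 ± 0.10 for RAET1E (limma adjusted p = 7.1e-04, 0.0014, 2.7e-04, 4.2e-08 and 2.0e-04). These 5 calls held in every alternative in which the gene was tested. For ULBP1 and ULBP2 the differences did not pass the threshold, at 0.03 (95% confidence interval -0.30 to 0.35) and -0.01 (-0.46 to 0.45), with limma adjusted p = 0.94 and 0.99.

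Between RKO and COLO 201, 48.4% of 9510 genes differed and 3 of the 4 ligands tested in both did. The difference (RKO minus COLO 201) was -1.11 ± 0.14 for MICA, -0.98 ± 0.14 for MICB and -1.20 ± 0.22 for ULBP3 (limma adjusted p = 5.6e-06, 2.3e-05 and 3.3e-04), and -0.45 ± 0.21 for ULBP2 (0.086). Between RKO and H1975, 39.9% of 9732 genes differed and MICA did (-0.37 ± 0.13, limma adjusted p = 0.033), while MICB (-0.30, 95% confidence interval -0.59 to -0.00), ULBP2 (-0.46, -0.91 to 0.00) and ULBP3 (0.25, -0.23 to 0.73) did not pass the adjusted threshold. With columns rescaled ULBP3 did (0.55, limma adjusted p = 0.0482). Without RKO vehicle column 1 the ULBP2 differences were called, at -0.65 against COLO 201 (1.0e-04) and -0.66 against H1975 (1.2e-04). The MICA difference was lost in 12 of 20 alternatives. It was -0.06 (limma adjusted p = 0.685) with small noncoding and mitochondrial genes removed and -0.17 (0.14) with columns rescaled, and it was lost with a pseudocount of 0.1 (0.136) and with the 12 columns of the pair only (0.105). The others were leaving out RKO vehicle column 1 or 2 (0.0511 and 0.0651), RKO doxycycline column 1 or 3 (0.0675 and 0.0666), H1975 vehicle column 1 or 2 (0.0904 and 0.0652) and H1975 doxycycline column 2 or 3 (0.0727 and 0.0687).

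The make-up of the ligand pool, taken as shares of the summed TPM of the 8 genes, does not depend on the rest of a table. In COLO 201 the MIC genes made up 51.9%, 53.4% and 51.1% of the pool in doxycycline columns, against 42.5%, 41.4% and 39.1% in vehicle columns. In H1975 they made up 43.9%, 44.6% and 44.2% with doxycycline, against 31.7%, 30.6% and 32.3% with vehicle. The arms did not overlap in either line. The sum itself was 55.7 ± 1.33 TPM with doxycycline and 29.5 ± 1.01 TPM with vehicle in COLO 201 (SD, n = 3), and 104.0 ± 4.16 and 106.0 ± 6.10 TPM in H1975. The H1975 sums of the arms differed by less than their SD, while the MIC shares did not overlap.

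In RKO the MIC genes made up 18.2%, 17.3% and 17.95% of the pool with doxycycline, against 20.1%, 11.1% and 11.8% with vehicle. Vehicle column 1, the column with fibroblast and endothelial markers, had the highest MIC share and the other vehicle columns the lowest. ULBP2 made up 21.8%, 24.8% and 24.1% of the RKO pool with doxycycline, against 33.2%, 36.3% and 34.8% with vehicle, and ULBP3 54.6%, 49.7% and 51.3% against 39.7%, 46.6% and 47.5%. The shares of these genes did not overlap between arms in RKO, with ULBP2 lower and ULBP3 higher. Shares sum to 100%, so a lower ULBP2 share raises those of the other ligands. The ULBP3 TPM overlapped between arms (log2 change -0.02). The ratio of ULBP3 to ULBP2 was 2.21 ± 0.264 with doxycycline and 1.28 ± 0.0851 with vehicle. In COLO 201 it was 4.09 ± 0.289 and 1.38 ± 0.162, and in H1975 it was 0.681 ± 0.0686 and 0.718 ± 0.0349 (SD, n = 3 each).

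RAET1E took 2.48% ± 0.0926 of the COLO 201 pool with doxycycline, against 13.1% ± 0.939 with vehicle, and RAET1L 11.8% ± 1.15 against 5.55% ± 0.259. The ratio of MICA to MICB did not overlap between arms in COLO 201 and RKO, where doxycycline was higher, and overlapped in H1975. It was 1.76 ± 0.0435 with doxycycline and 1.61 ± 0.0193 with vehicle in COLO 201, 3.82 ± 0.502 and 3.55 ± 0.360 in H1975, and 1.05 ± 0.00386 and 0.982 ± 0.0433 in RKO.

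**Figure D3:**
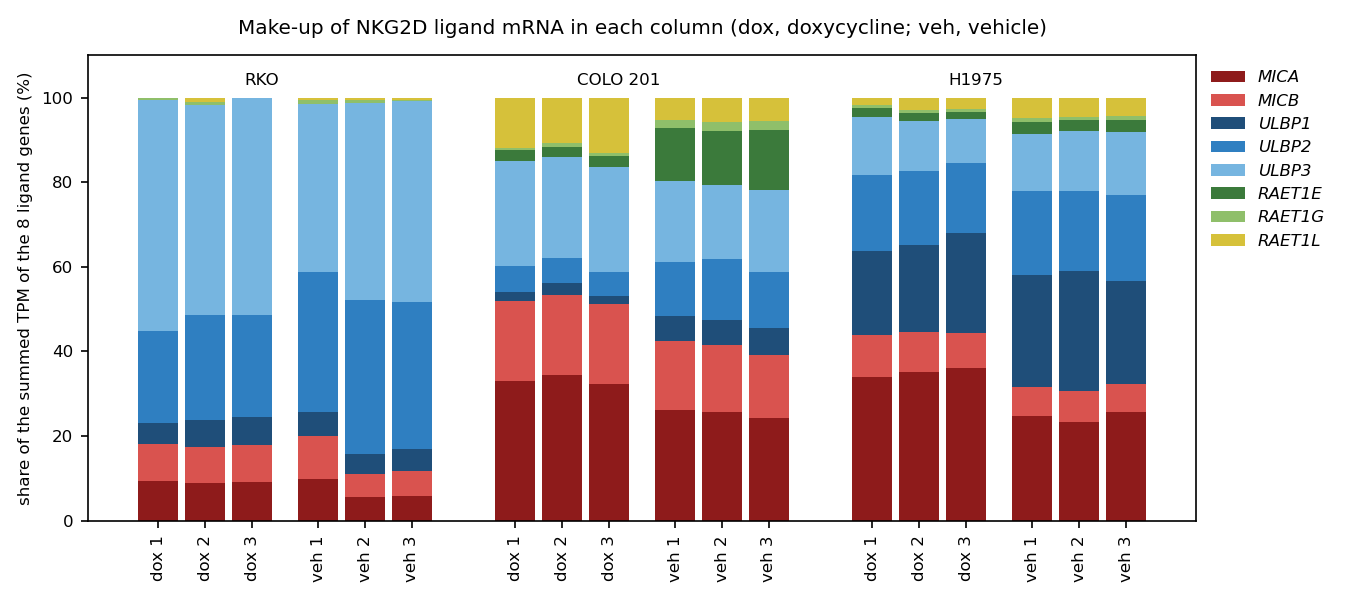
Share of each ligand in the summed TPM of the 8 ligand genes (%), 1 bar per column, with doxycycline bars left of vehicle bars in each line. The MIC part (red) is larger in every doxycycline bar than in every vehicle bar of COLO 201 and H1975, and in RKO vehicle bar 1 has the largest MIC part.

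The lines differed in which ligand led, a description only, since the tables were normalised separately. In vehicle-treated RKO cells ULBP3 and ULBP2 were highest, with overlapping ranges, followed by MICB, MICA and ULBP1, whose ranges overlapped in turn. In vehicle-treated COLO 201 cells the order was MICA, ULBP3, MICB, ULBP2, RAET1E, ULBP1, RAET1L and RAET1G. The ranges of MICB and ULBP2, of ULBP2 and RAET1E, and of ULBP1 and RAET1L overlapped. In doxycycline-treated COLO 201 cells RAET1L had moved ahead of ULBP2, RAET1E and ULBP1, and only the ranges of RAET1E and ULBP1 overlapped.

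In vehicle-treated H1975 cells ULBP1 and MICA led with overlapping ranges (28.0 ± 2.63 and 26.0 ± 2.02 TPM, SD, n = 3). With doxycycline MICA was alone at the top (36.4 ± 2.24 TPM), above ULBP1 (22.3 ± 2.38 TPM). ULBP2, ULBP3 and MICB followed in both arms, then RAET1L, RAET1E and RAET1G. ULBP1 was much higher in H1975 than in the other lines. Over the genes shared by all tables its vehicle columns had 35.0 ± 3.02 TPM in H1975, 3.01 ± 0.453 TPM in RKO and 2.26 ± 0.0261 TPM in COLO 201.

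The receptor itself was at or near 0 in these cells. KLRK1, which encodes NKG2D, was at 0 in RKO and averaged 0.0728 TPM with doxycycline and 0.0369 TPM with vehicle in COLO 201, and 0.0688 and 0.0846 TPM in H1975. TYROBP, an adaptor of activating receptors, was at 0 in every column of the 3 tables. HCST, the adaptor DAP10 of NKG2D, was tested in H1975 only, at 1.70 ± 0.962 TPM with doxycycline and 1.54 ± 0.197 TPM with vehicle (log2 change 0.03).

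Sequence shared between the ligands limits how well their reads can be told apart, and how the authors treated reads with several matches is not given in the sources used here. In the coding transcripts of GENCODE release 29, 29.4% of the 50-base words of ULBP2 also occurred in RAET1L and 11.6% in RAET1G. Of the words of ULBP3, 12.4% occurred in the pseudogene RAET1K, and 38.2% of those of RAET1E occurred in AL355312.5, an overlapping gene on the same strand. RAET1E and RAET1G also overlap RAET1E-AS1 on the opposite strand, and MICA overlaps HCP5. The libraries were stranded, per the labels, but whether counting used strand is not given here. Of the ULBP3 words, 6.50% also occurred in ULBP1. Values of ULBP2, ULBP3, RAET1L, RAET1G and RAET1E are therefore uncertain. MICA and MICB shared 1.89% of the MICA words.

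RAET1K had a row in the RKO table only. It had 0.495, 0.669 and 0.710 TPM in doxycycline columns, against 0.955, 1.67 and 1.38 TPM in vehicle columns, without overlap and below the minimum for the test. HCP5 was at 0.00627 TPM or less in every RKO column, and MICA-AS1 averaged 0.0981 TPM with doxycycline and 0.151 TPM with vehicle.

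**Figure D4:**
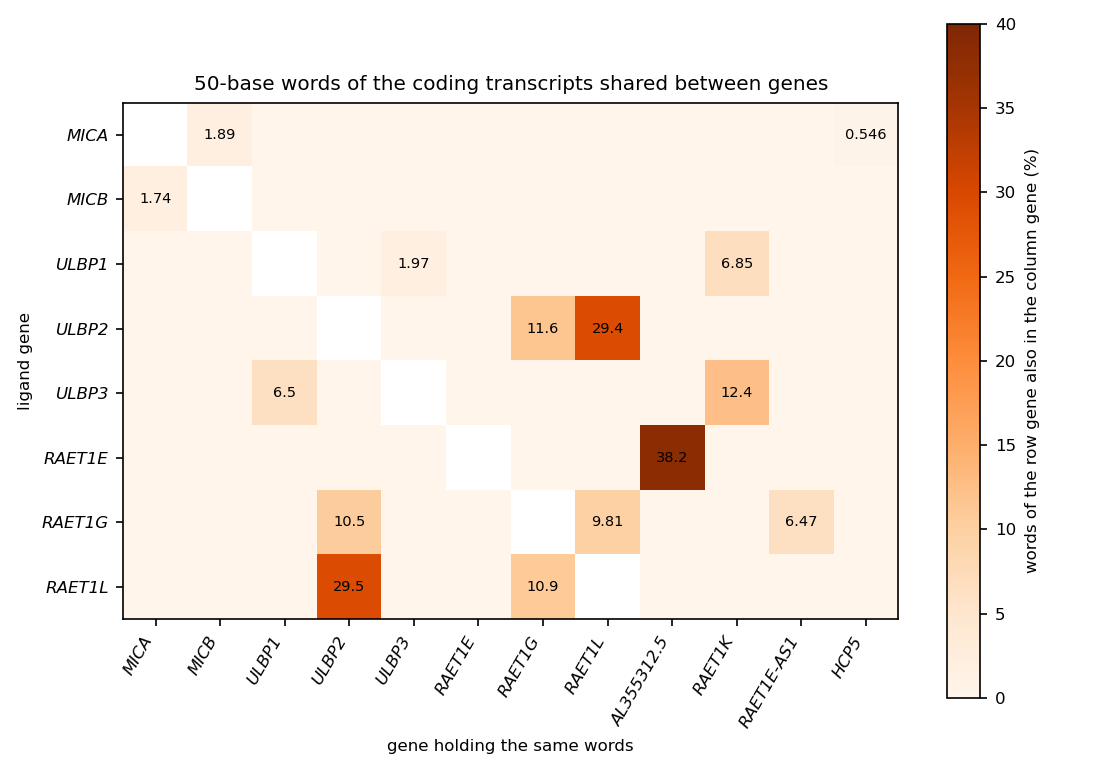
Percentage of the 50-base words in the coding transcripts of each ligand (rows) that also occur in another gene (columns), with values printed where above 0 and white for a gene with itself. ULBP2 and RAET1L share 29.4% of the ULBP2 words, while MICA and MICB share 1.89% of the MICA words.

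Genes next to the ligands were counted within 300 kb of each cluster. Around MICA and MICB in COLO 201, 17 of 23 tested neighbours rose and 0 fell by limma, where 45.9% of all genes rose, with a median log2 change of 0.31 beside 0.12 over all genes tested. With columns rescaled by the median ratio 12 rose and 2 fell, where 3153 of 11558 genes rose and 3435 fell. The HLA class I genes HLA-B (1.17 ± 0.05, limma adjusted p = 4.3e-09) and HLA-C (0.57 ± 0.04, 1.6e-07) were among the neighbours that rose. DDAH2 (0.68 ± 0.05, 1.7e-07), a dimethylarginine hydrolase relative, rose too. In H1975, 3 of 19 rose and 1 fell, where 23.9% of all genes rose and 14.6% fell, with a median of 0.05. There 0 rose without doxycycline column 1, 1 without vehicle column 1 or 2 and 5 without doxycycline column 3, 2 fell without vehicle column 3, doxycycline column 1 or doxycycline column 3, and 2 rose and 3 fell with columns rescaled. DDAH2 fell there (-0.37 ± 0.08, 0.0034) and HLA-B was not called, with a change of at most 0.17 under the alternatives. In RKO, 1 of 11 rose, HLA-B (0.87 ± 0.18, 0.0012), and 1 fell, SNORD84 (-0.87 ± 0.19, 0.0015), a small nucleolar RNA gene. Without doxycycline column 2, 2 fell in RKO, and with columns rescaled 2 rose and 2 fell of 10 tested. Of all RKO genes tested, 2.09% rose and 16.1% fell. Over all genes, rescaling gave 2624 higher and 2288 lower of 12363 in H1975 and 1453 and 1468 of 10517 in RKO.

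Around the ULBP and RAET1 genes, NUP43, which encodes a nuclear pore protein, fell in all 3 lines (-1.42 ± 0.19 in RKO, -0.67 ± 0.06 in COLO 201 and -0.45 ± 0.09 in H1975, limma adjusted p = 8.1e-06, 2.4e-06 and 0.0011). Of 7 tested neighbours, 1 rose and 3 fell in COLO 201, 2 rose and 1 fell in H1975 (1 rose without vehicle column 1 or 3 or doxycycline column 1 or 3), and 0 rose and 2 fell in RKO (4 without doxycycline column 2, and 1 without vehicle column 2 or doxycycline column 1 or 3). With columns rescaled, 0 rose and 6 fell in COLO 201, and 1 rose and 1 fell in H1975. Without doxycycline column 2, 5 fell in COLO 201. PPP1R14C, a phosphatase inhibitor gene, fell in COLO 201 (-0.34 ± 0.08, 0.0037) and rose in H1975 (0.32 ± 0.07, 0.0025).

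**Figure D5:**
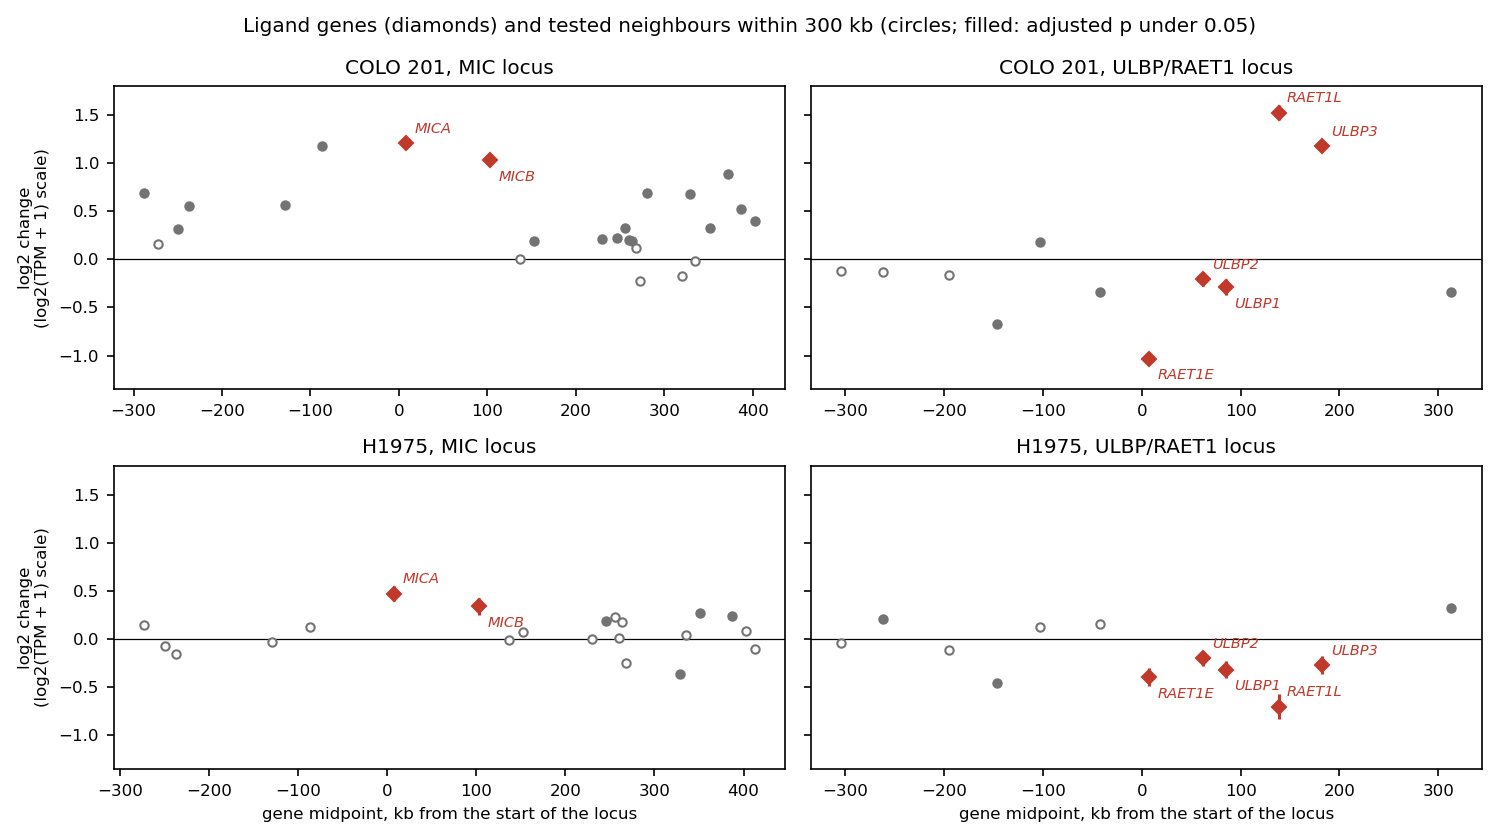
Log2 change (doxycycline against vehicle) of the tested ligand genes (red diamonds, ± SE) and of tested neighbours within 300 kb (grey circles, filled for adjusted p under 0.05) against distance in kb from the start of the MIC or ULBP/RAET1 cluster, in COLO 201 and H1975. In COLO 201 17 of 23 neighbours of the MIC genes are called higher, and in H1975 3 of 19 are.

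Known regulators and processing factors of the ligands were counted by list. The counts stand beside 45.9% of all genes tested called higher and 15% lower in COLO 201, 23.9% and 14.6% in H1975, and 2.09% and 16.1% in RKO. Counts with columns rescaled stand beside 3153 higher and 3435 lower of 11558 genes in COLO 201. In H1975 these were 2624 and 2288 of 12363, and in RKO 1453 and 1468 of 10517. With vehicle column 1 left out as well, 29.1% of RKO genes were higher and 29.8% lower. Of 22 transcriptional regulators of the ligands, 7 rose and 10 fell in COLO 201, 7 rose and 3 fell in H1975 (4 rose without vehicle column 1), and 2 rose and 6 fell in RKO (1 rose without any 1 column except vehicle column 2, and 2 fell without doxycycline column 1). Their median log2 changes were 0.04, 0.09 and -0.40, beside 0.12, 0.06 and -0.26 over all genes tested. With columns rescaled 5 rose and 11 fell in COLO 201 and 3 rose and 3 fell in RKO, and in RKO 6 rose and 8 fell with vehicle column 1 left out as well. MYC, a growth regulator, rose in COLO 201 (0.50 ± 0.04, limma adjusted p = 5.3e-07) and H1975 (0.61 ± 0.07, 1.1e-05). DDIT3, an endoplasmic reticulum stress factor, rose in RKO (1.22 ± 0.21, 2.2e-04) and fell in COLO 201 (-0.53 ± 0.05, 2.4e-06).

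Of 5 DNA damage kinases, whose activation is known to raise NKG2D ligands, 1 rose in COLO 201 (2 without doxycycline column 3), 3 rose in H1975 (1 without vehicle column 1, vehicle column 3 or doxycycline column 3) and 2 fell in RKO (1 without doxycycline column 1). Their median log2 changes were 0.07, 0.23 and -0.38 in COLO 201, H1975 and RKO, beside 0.12, 0.06 and -0.26 over all genes. With columns rescaled 1 rose and 1 fell in COLO 201. The checkpoint kinase gene CHEK2 rose in COLO 201 (0.44 ± 0.05) and H1975 (0.49 ± 0.07, limma adjusted p = 1.3e-05 and 1.5e-04). Of 10 chromatin regulators, 4 rose (2 without vehicle column 1 or 3 or doxycycline column 1) and 2 fell in COLO 201, 0 rose and 1 fell in H1975, and 0 rose and 1 fell in RKO (3 without doxycycline column 2, and 2 without vehicle column 2 or 3). With columns rescaled 2 chromatin regulators rose and 5 fell in COLO 201, 0 rose and 2 fell in H1975, and 1 rose and 2 fell in RKO, or 1 and 5 without vehicle column 1. Of 8 tested RNA-level regulators, 3 rose and 2 fell in COLO 201, 3 rose and 3 fell in H1975, and 1 rose (0 without doxycycline column 3) and 3 fell in RKO (1 without doxycycline column 1). With columns rescaled 2 rose and 5 fell in COLO 201, 3 rose and 4 fell in H1975, and 2 rose and 4 fell in RKO. In this list IGF2BP2, an RNA-binding protein gene, rose in COLO 201 (0.38 ± 0.04, 1.2e-05), H1975 (0.42 ± 0.06, 2.1e-04) and RKO (0.85 ± 0.22, 0.0065, and 0.0697 without doxycycline column 3). Its relative IGF2BP3 fell in COLO 201 (-0.20 ± 0.06, 0.0074), H1975 (-0.34 ± 0.08, 0.0044) and RKO (-0.77 ± 0.21, 0.0107). The RKO call of IGF2BP3 was lost without vehicle column 2 (0.0678), doxycycline column 1 (0.114) or doxycycline column 3 (0.0704).

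Heat shock genes, named here because of the element shared by the MICA and MICB windows, had median log2 changes of -0.07 in COLO 201, 0.07 in H1975 and -0.83 in RKO, beside 0.12, 0.06 and -0.26 over all genes. Of all genes tested, 45.9% rose and 15% fell in COLO 201, 23.9% and 14.6% in H1975, and 2.09% and 16.1% in RKO. Of the heat shock genes in COLO 201, 2 of 9 rose and 1 fell, and with columns rescaled 1 rose and 6 fell. The count of fallen genes there was 0 without vehicle column 1, vehicle column 2 or doxycycline column 3 and 2 without vehicle column 3 or doxycycline column 2. The inducible chaperone gene HSPA1B was among those that rose (0.53 ± 0.05, limma adjusted p = 1.7e-06). In H1975 2 rose (0 without vehicle column 1, and 1 without vehicle column 2 or doxycycline column 3) and 1 fell (2 without vehicle column 3 or doxycycline column 3), and with columns rescaled 1 rose and 1 fell. In RKO 0 rose and 7 of 8 fell, and 4, 0 and 3 fell without vehicle column 2, doxycycline column 1 and doxycycline column 3. With columns rescaled 0 rose and 5 of 8 fell in RKO, or 7 of 8 with vehicle column 1 left out as well. With small noncoding and mitochondrial genes removed 5 of 9 fell there.

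The list of ligand shedding and processing had 6 tested genes, among them the metalloprotease inhibitor gene TIMP2. In COLO 201 3 fell and 0 rose. In H1975 1 rose (0 without vehicle column 1, vehicle column 3, doxycycline column 1 or doxycycline column 3) and 1 fell (2 without doxycycline column 2). In RKO 0 rose and 2 fell (0 without vehicle column 1 or doxycycline column 1, and 1 without doxycycline column 2). TIMP2 was among the fallen genes in each line, so these counts mix genes that shed or process the ligands with an inhibitor. The list medians were -0.06, 0.08 and -0.49 in COLO 201, H1975 and RKO. Over all genes tested 45.9% rose and 15% fell in COLO 201, 23.9% and 14.6% in H1975, and 2.09% and 16.1% in RKO. With columns rescaled 6 of 6 fell in COLO 201 and 1 fell in RKO, and in RKO 2 rose and 1 fell of 5 tested with vehicle column 1 left out as well. TIMP2, which encodes an inhibitor of metalloproteases, changed by -0.52 ± 0.05 in COLO 201 (limma adjusted p = 1.4e-06) and by -0.56 ± 0.07 in H1975 (3.9e-05). All 5 genes of the GPI transamidase, which attaches the anchor that several ULBP proteins need, rose in COLO 201, where 45.9% of all genes rose. They rose also with columns rescaled. Their median was 0.28 beside 0.12 over all genes. PIGT led them (0.43 ± 0.04, 7.5e-07). In H1975 1 of 5 rose (0 without vehicle column 1 or 2 or doxycycline column 1 and with columns rescaled, and 2 without doxycycline column 3), and in RKO 1 fell (0 without vehicle column 2, doxycycline column 1 or doxycycline column 3, and 4 without doxycycline column 2). With columns rescaled 1 rose and 1 fell in RKO, or 1 and 3 without vehicle column 1. With no minimum TPM, which left 28 calls in RKO, the RKO calls of NUP43, HLA-B, DDIT3, IGF2BP2 and IGF2BP3 were lost (limma adjusted p between 0.0527 and 0.11).

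The genes with the pattern most like each ligand were taken by the smallest root mean square difference in log2(TPM + 1), set against the vehicle mean, over the 12 columns of COLO 201 and H1975 among 10822 genes. The closest to MICA was WDFY2 (0.0997), followed by GCAT and KCNH2. MICB had ANKH (0.0626), and then GCAT and KCNH2 as MICA did. ULBP3 was closest to ZNF385A (0.0880) and APOBEC3G (0.106), and RAET1E to AGR2 (0.0826) and CELSR1 (0.0887). ULBP1 was closest to DENND1B (0.0486) and ULBP2 to SMG5 (0.0455). No gene came as close to RAET1L, whose nearest was TEAD2 at 0.231.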

How the data were processed

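Total RNA was sequenced as stranded mRNA libraries (TruSeq), per the labels' protocols, and aligned to GRCh38 with STAR, per the submitters' processing notes, which also name DESeq2 without versions. Each cell line has 1 table of TPM that the authors deposited, with 6 columns. TPM keep no read totals, so the depth behind a value is unknown.

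The arm was read from the column headings, because all sample records name the same agent. RKO columns headed DOX with no sign were read as vehicle. Gene symbols were updated through RefSeq synonyms (1115 entries in RKO, 1352 in COLO 201 and 1379 in H1975), and 28 entries of COLO 201 named as dates were left out. Genes with a mean of at least 1 TPM entered a two-sided limma test (version 3.58.1, R 4.3.3) on log2(TPM + 1), fitted with a mean-variance trend, with Benjamini-Hochberg adjustment over 10551 genes in RKO, 11566 in COLO 201 and 12359 in H1975. Differences between lines came from a joint fit. The scripts were tested on data simulated from the means and spread of each line. Simulated log2 changes of 0.5 were called in 0% of genes in RKO, 93.1% in COLO 201 and 83.1% in H1975. Changes of 1 were called in 56.5%, 100% and 98.3%. RKO ligands not called may therefore have changed by such amounts. The members and the 14 gene lists were chosen with earlier results of these data known.

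All ligands are named. Of each list and each cluster's neighbours, up to 4 genes per line with the smallest adjusted p could be named, and up to 3 genes most like each ligand. The receptor genes, the antisense and overlapping genes of the ligands, the top genes of the marker lists and HLA-B in H1975 are named besides, chosen after their values were seen. Other settings tried were a pseudocount of 0.1 or 5, no minimum or 5 TPM, rescaling by the median ratio, removal of small noncoding and mitochondrial genes, no trend, a block for the column number, and each column left out. The joint fit of 12 columns was added after the data were seen. Promoters are from RefSeq (GRCh38.p14), matched by symbol for all 8 ligands. Proteins are not shown, and some genes of the lists are not reported here.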

Additional observations from a re-analysis of the deposited data

Results flagged for a closer look

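These changes differed between lines in the joint limma fit, and each is a difference of log2 changes with doxycycline against vehicle. Between COLO 201 and H1975 (COLO 201 minus H1975) the difference was 0.74 for MICA, 0.69 for MICB, 1.44 for ULBP3, 2.22 for RAET1L and -0.64 for RAET1E. ULBP3 and RAET1L had opposite signs in these lines, and MICA, MICB and RAET1E had the same sign with a larger change in COLO 201. Between RKO and COLO 201 (RKO minus COLO 201) it was -1.11 for MICA, -0.98 for MICB and -1.20 for ULBP3. Between RKO and H1975 (RKO minus H1975) it was -0.37 for MICA, a call lost in 12 of 20 alternatives, with -0.06 (limma adjusted p = 0.685) once small noncoding and mitochondrial genes were removed. RKO values include vehicle column 1, which held fibroblast and endothelial markers. Without that column the differences RKO minus COLO 201 kept their calls, and the MICA difference RKO minus H1975 lost its call (0.0511). Dixon's rule was not applied, since each group holds 3 columns.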

How the results depend on the processing

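In COLO 201 and H1975 the 2 MIC genes were higher with doxycycline and called in every alternative run, except MICB in H1975 without vehicle column 1. The ligand count in RKO was 2 higher without vehicle column 1 and with columns rescaled by the median ratio, and 0 lower with a pseudocount of 5, with no minimum TPM, with a minimum of 5 TPM, with rescaling and with small noncoding genes removed (0 to 1 with single columns left out). In COLO 201, 0 ligands were lower with a minimum of 5 TPM, where 3 were tested. In H1975, 3 were lower with no minimum, 2 with a minimum of 5 TPM and 3 with the column number as a replicate block (1 to 2 higher and 2 to 5 lower with single columns left out). Whether column numbers pair the samples was not settled. Deviations of same-numbered columns correlated at 0.29, 0.27 and -0.01 in RKO and -0.05, 0.15 and 0.28 in COLO 201. In H1975 they correlated at 0.16, -0.42 and -0.35. Correlations between columns of different numbers ran from -0.32 to 0.20 in RKO and -0.28 to 0.18 in COLO 201. In H1975 these ran from -0.33 to 0.46. With the block 2415, 7759 and 3738 genes were called, against 1915, 7052 and 4759 without it. Called genes in RKO numbered 28 with no minimum, where 18325 genes were tested, 2921 with rescaling, 6056 with rescaling and without vehicle column 1, and 595 to 2410 with single columns left out. In H1975 they ran between 3075 and 5206. Genes that differed between RKO and H1975 numbered 2237 with only the 12 columns of the pair. Between COLO 201 and H1975 they numbered 740 and 2029 with pseudocounts of 0.1 and 5, 2493 and 691 with no minimum and 5 TPM, 3068 with rescaling, 2183 with small noncoding and mitochondrial genes removed, 4175 with 12 columns only, and 858 to 1156 with single columns left out. The following values changed sign under some setting. ULBP3 in RKO was 0.24 with rescaling, 0.24 with small noncoding genes removed, 0.0078 with rescaling and without vehicle column 1, and -0.28 to 0.18 with single columns left out. With single columns left out, MICB in RKO ran between -0.024 and 0.11, and ULBP3 in RKO minus H1975 between -0.0075 and 0.45. ULBP3 in RKO minus H1975 was 0.55 and called with rescaling (limma adjusted p = 0.0482), and 0.56 and not called with small noncoding genes removed (0.0652). Over all settings MICB in RKO reached 0.28, with small noncoding genes removed. In COLO 201 minus H1975, ULBP1 was -0.13 with a pseudocount of 0.1, -0.0123 with rescaling and -0.0503 to 0.10 with single columns left out, and ULBP2 was 0.0554 with a pseudocount of 5 and -0.0552 to 0.0478 with single columns left out. The cause was not tested where none is given. The unknown depth limits RAET1E, RAET1G and RAET1L in RKO, which were below 0.2 TPM.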
